A study of Mus musculus with 2 samples.

Results

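Interferon-stimulated genes are the genes that a cell switches on when it senses an interferon, and 45 of them were followed here in mouse calf muscle. They were taken from a fixed list of symbols, matched through GENCODE M21 on GRCm38, and all 45 were found among the 34745 genes of the count table. The genes fall into 24 type I response effectors, 7 interferon-inducible GTPases and 14 signalling and sensing genes. The study holds 2 RNA-seq libraries of gastrocnemius muscle from C57BL/6 mice aged 8 weeks, 1 of genotype Cry2scko and 1 of genotype Cry2flox/flox (Cry2flox). Cry2 encodes cryptochrome 2, a protein that represses circadian transcription, and in a floxed allele a recombinase can cut out the stretch between its recognition sites. The labels neither spell out scko nor name the recombinase, the cells in which it acts, an infection, an interferon treatment, the hour of collection or the number of animals behind a library.

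Type I interferons bind the receptor IFNAR1-IFNAR2, whose kinases JAK1 and TYK2 phosphorylate STAT proteins. STAT2 and IRF9 are parts of the complex ISGF3, which binds the interferon-stimulated response element (ISRE) in promoters. Interferon gamma acts through IFNGR1-IFNGR2 and the gamma-activated site (GAS) of promoters, and it is the main known inducer of the immunity-related GTPases and many guanylate-binding proteins. Many of these genes are also read at a low basal level without infection. In muscle they can come from fibres, vessels, fibroblasts or resident immune cells, which a count from whole tissue does not separate.

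The total count was 16423884 reads in Cry2scko and 18909433 reads in Cry2flox, and the 45 genes took 0.0414% of those in Cry2scko and 0.0368% of those in Cry2flox. Cry2 itself had 133 reads in Cry2scko and 676 in Cry2flox, 4.46-fold lower in the Cry2scko library. Defining genes of muscle fibre (Acta1, Ckm, Myh4 and 5 others) summed to 145272 CPM (counts scaled to library size) in Cry2scko and 150877 CPM in Cry2flox, and 0 of 8 differed by 2-fold. Each genotype has 1 library and no replicate, so the values below compare those libraries and carry no test across animals. Ratios are Cry2scko over Cry2flox, on counts scaled to library size. Their 95% intervals are exact binomial intervals on the reads and cover counting error only. Since the reads carry no molecular identifiers, PCR copies count as separate reads and the intervals can be too narrow even for that. In whole muscle, fewer cells of a type and less RNA per cell cannot be told apart.

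Some of the promoters show the letters through which interferon-stimulated genes are known to respond. In the RefSeq promoters of GRCm38.p6, each running from 250 bases before to 50 bases after a start site, 34 of the 45 genes had an entry. The ISRE letters TTTCNNTTTC, read on both strands, stood in at least 1 promoter of 19 of these 34 genes (55.9%), against 1079 of 27025 genes in the whole table (3.99%). The GAS letters TTCNNNGAA, which read the same on both strands, stood in 11 of the 34 (32.4%), against 9.55% of all genes. Both motifs occurred in 6 of the 41 member promoters, and in 1 of them, that of Bst2, their letters overlapped. In 5 promoters ISRE matches overlapped each other, as in Isg15. A match of letters is not a shown binding site. The 250 bases before the start site are given for 5 genes, because they hold the clearest matches and because Ifit3b and Ifit3 among them have the lowest ratios of the list while Ifit1 lies near 0. Capitals mark ISRE letters, and in Irf1 GAS letters.
Ifit1 (GRCm38.p6, chr19:34640639-34640888, plus strand): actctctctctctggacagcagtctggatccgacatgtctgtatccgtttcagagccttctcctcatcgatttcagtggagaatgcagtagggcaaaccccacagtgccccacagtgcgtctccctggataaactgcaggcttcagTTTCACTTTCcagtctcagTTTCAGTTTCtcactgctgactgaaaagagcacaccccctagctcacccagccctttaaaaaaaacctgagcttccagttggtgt
Ifit3 (GRCm38.p6, chr19:34583279-34583528, plus strand): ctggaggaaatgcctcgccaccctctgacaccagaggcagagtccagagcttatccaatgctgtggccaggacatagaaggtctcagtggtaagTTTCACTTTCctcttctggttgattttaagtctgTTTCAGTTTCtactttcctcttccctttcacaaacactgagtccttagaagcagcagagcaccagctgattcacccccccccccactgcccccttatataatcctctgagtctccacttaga
Ifit3b (GRCm38.p6, chr19:34607707-34607956, plus strand): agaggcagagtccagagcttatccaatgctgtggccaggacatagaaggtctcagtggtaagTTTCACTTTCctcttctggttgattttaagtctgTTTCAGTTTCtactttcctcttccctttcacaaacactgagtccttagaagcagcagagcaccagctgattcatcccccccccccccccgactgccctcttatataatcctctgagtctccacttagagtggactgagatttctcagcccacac
Isg15 (GRCm38.p6, chr4:156200819-156201068, minus strand): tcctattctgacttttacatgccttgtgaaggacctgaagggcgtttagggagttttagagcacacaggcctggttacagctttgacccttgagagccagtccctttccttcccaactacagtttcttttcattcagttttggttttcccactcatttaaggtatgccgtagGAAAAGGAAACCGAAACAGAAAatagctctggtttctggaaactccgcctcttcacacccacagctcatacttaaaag
Irf1 (GRCm38.p6, chr11:53769764-53770013, plus strand): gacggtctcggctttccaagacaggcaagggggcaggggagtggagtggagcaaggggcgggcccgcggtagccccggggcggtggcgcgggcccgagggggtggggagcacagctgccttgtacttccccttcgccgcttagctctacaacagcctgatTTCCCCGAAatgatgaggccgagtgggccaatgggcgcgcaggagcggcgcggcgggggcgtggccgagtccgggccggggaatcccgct

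The promoters of Ifit3 and Ifit3b share an unbroken identical run of 169 bases that holds both of their ISRE matches. Ifit1, Ifit3 and Ifit3b each carry 2 matches, yet their log2 ratios between the libraries were 0.03, -0.66 and -1.06. Isg15, with 3 overlapping matches read on the other strand, was at 0.02. Among members with ISRE letters the median log2 ratio was 0.03 (17 genes at a mean of 1 CPM or more), and among members with a promoter but without those letters it was 0.09 (14 genes).

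All 45 genes were read in both libraries, at low levels. On the FPKM scale of the authors, which divides reads by gene length and by depth, the mean of the libraries ran between 0.0748 for Oas3 and 12.4 for Bst2, with a median of 1.41, and 28 of the 45 genes lay at 1 or more. Bst2, which encodes tetherin, a membrane protein that holds budding viruses on the cell surface, stood alone at the top with 12.7 FPKM in Cry2scko and 12.0 in Cry2flox. Next came Gbp7 (5.28 in Cry2scko and 4.35 in Cry2flox), Ifi27 (a mean of 4.70), Trim25 (4.77 in Cry2scko and 3.69 in Cry2flox), Ifi35 (a mean of 4.02) and Iigp1 (4.19 in Cry2scko and 3.56 in Cry2flox). For each of these 5 the gap to the next in the order was smaller than the gap between its libraries. At the bottom were Oas3, Oasl1, Oas1a, Mx1, Zbp1 and Mx2, each under 0.2 FPKM in the mean, and these 6 also fell short of the mean of 1 CPM from which genes were compared.

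**Figure D1:**
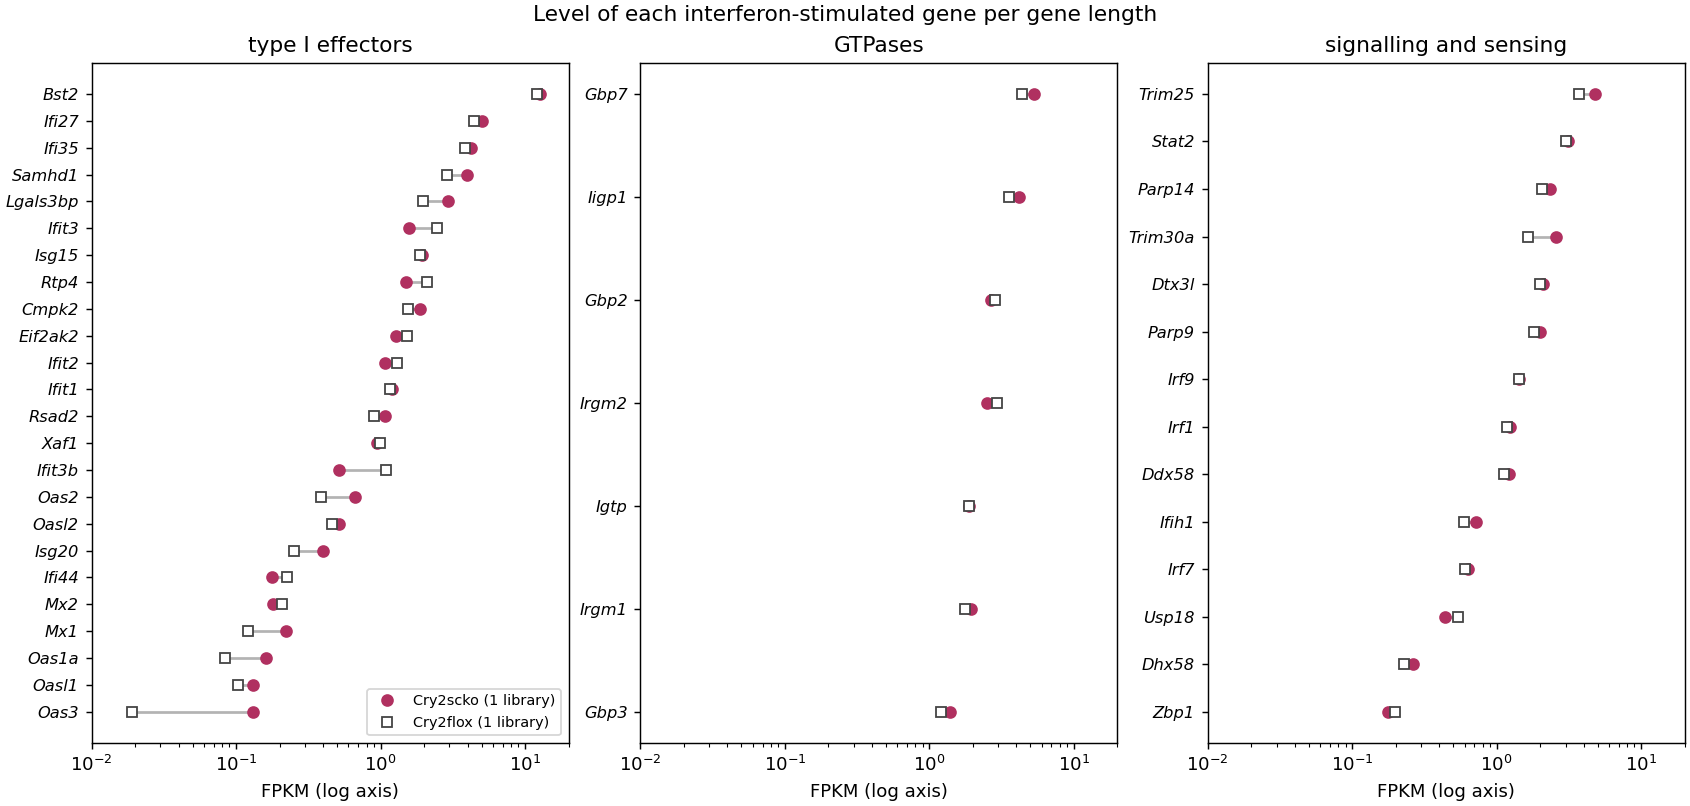
FPKM of each of the 45 genes on a log axis, by role, with filled circles for Cry2scko and open squares for Cry2flox (1 library each) and a grey line joining them. Bst2 is the highest in both libraries, and Oas3, at 0.131 in Cry2scko and 0.0189 in Cry2flox, has the widest gap on this axis.

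The list as a whole differed little between the libraries, with a small lean towards Cry2scko. The call used here asks for a ratio of at least 2-fold with an interval that excludes 1. Of the 39 members with a mean of 1 CPM or more, 0 were higher, 1 was lower (Ifit3b) and 38 were neither. Among all 12832 genes at that level, 3.37% were higher and 1.51% lower (4.88% in all), so neither member count stands far off its background. The members' median log2 ratio was 0.10, beside 0.00 over all compared genes, and 34 of 39 (87.2%) lay within 1.5-fold, beside 87.2% of all genes. Of the 39, 27 had a ratio above 1 and 12 below, while 50.5% of all compared genes lay below 1. In sum the 45 genes had 411 CPM in Cry2scko and 370 CPM in Cry2flox, a log2 ratio of 0.15 (0.10 to 0.20). Samhd1 alone gave 45.5 of those CPM in Cry2scko and 33.9 in Cry2flox.

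Smaller differences were looked for by dropping the 2-fold condition, a rule added after the values had been seen. The interval excluded a ratio of 1 for 9 of the 39 members, with 6 higher in Cry2scko (Oas2, Trim30a, Lgals3bp, Samhd1, Trim25 and Gbp7) and 3 lower (Ifit3b, Ifit3 and Irgm2). Over all compared genes this held for 16.3% in the higher and 17.3% in the lower direction, 33.5% together. Among the 10029 genes within the members' range of mean CPM (1.08 to 39.7), the interval alone excluded 1 for 29.2% in either direction, beside 23.1% of the members. With a limit of 1.5-fold besides, 2 members were higher (Oas2 and Trim30a) and 2 lower (Ifit3 and Ifit3b), against 6.56% and 4.35% of all compared genes. The half-width of the members' intervals ran between 1.11-fold and 2.00-fold with a median of 1.27-fold. For a typical member, differences below about that size were not detectable at this depth.

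**Figure D2:**
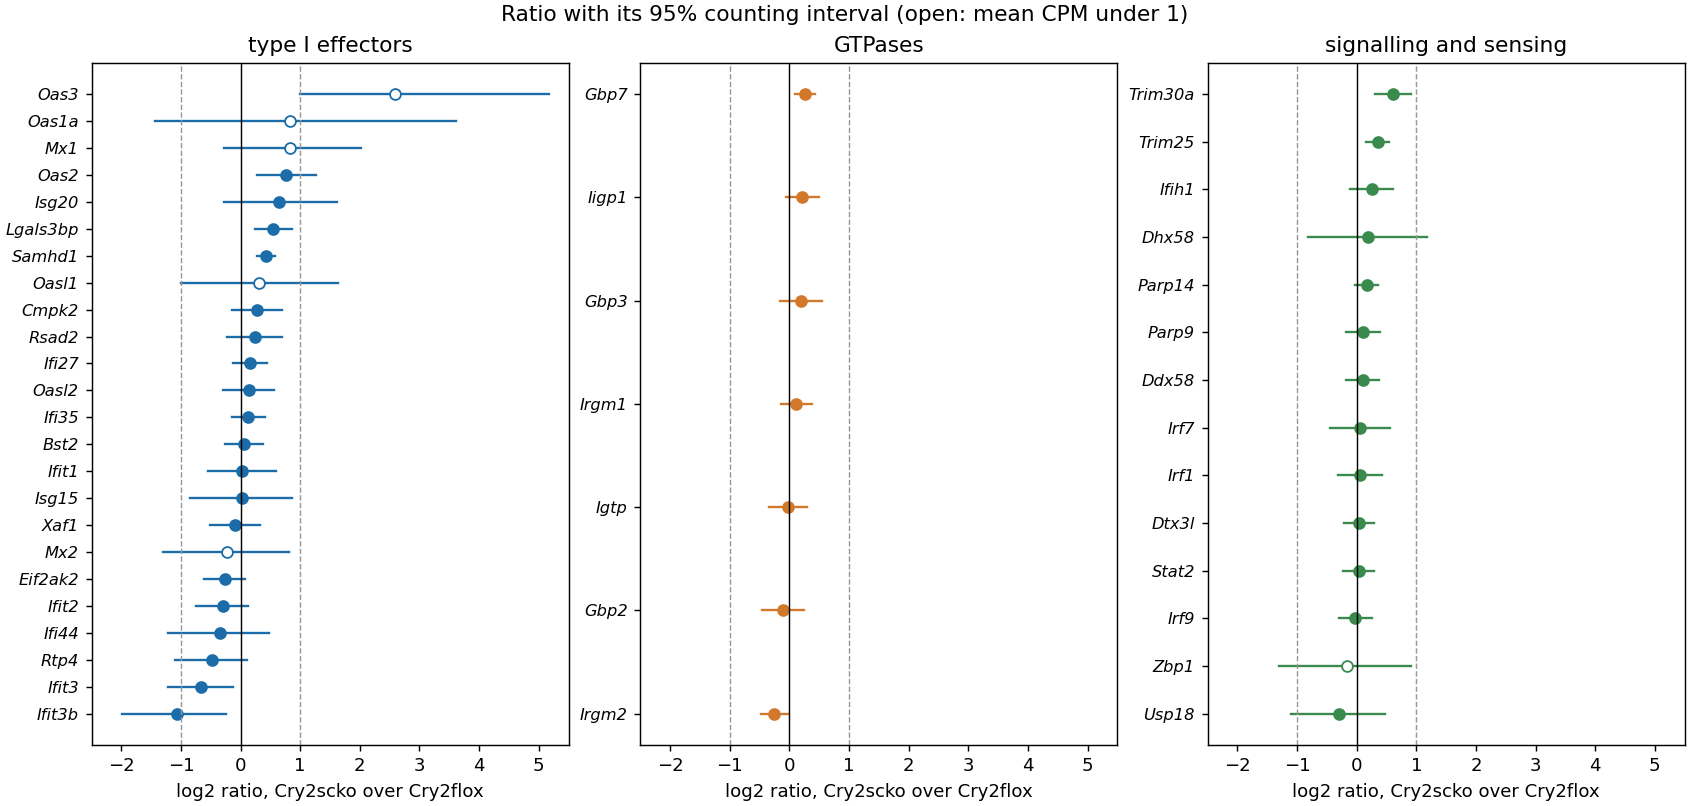
Log2 ratio of each gene, Cry2scko over Cry2flox, with its 95% counting interval, by role. Dashed lines mark 2-fold, and open circles are the 6 genes with a mean CPM under 1. Most intervals cross 0, and only Ifit3b among the filled circles lies past a dashed line.

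Among the type I response effectors, Ifit3b and Ifit3 had the lowest ratios. The Ifit genes encode proteins with tetratricopeptide repeats that bind viral RNA or partner with those that do, and sit side by side on chromosome 19. Ifit3b (ENSMUSG00000062488, chromosome 19, 34607970 to 34613401, plus strand) had 17 reads (1.03 CPM) in Cry2scko and 41 reads (2.18 CPM) in Cry2flox, a log2 ratio of -1.06 (-2.00 to -0.24). Ifit3 (ENSMUSG00000074896, chromosome 19, 34583531 to 34588731) had 45 reads in Cry2scko and 81 in Cry2flox, at -0.66 (-1.22 to -0.12). These genes are near-identical copies, with 97.8% identity over 1700 bases of transcript, so reads of one can be assigned to the other. Counted together they had 62 reads in Cry2scko and 122 in Cry2flox, a log2 ratio of -0.79 (-1.26 to -0.34), which did not reach 2-fold. With 5 reads added in place of 0.5, or with 0.1 added to FPKM, Ifit3b itself no longer reached 2-fold (log2 ratios -0.88 and -0.94). Its FPKM without that addition, 0.518 in Cry2scko and 1.08 in Cry2flox, did differ by more than 2-fold.

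Their neighbours differed less. Ifit2 had 77 reads in Cry2scko and 108 in Cry2flox (log2 ratio -0.30, -0.75 to 0.13), and Ifit1 had 52 reads in Cry2scko and 58 in Cry2flox, at 0.03 (-0.54 to 0.59). The intervals of both include a ratio of 1. Over the 4 genes together the log2 ratio was -0.41 (-0.68 to -0.14), with 11.5 CPM in Cry2scko and 15.3 CPM in Cry2flox.

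The oligoadenylate synthetases, a family known for sensing double-stranded RNA and activating RNase L, had ratios on the other side. Oas2 had 90 reads (5.44 CPM) in Cry2scko and 60 reads (3.20 CPM) in Cry2flox. This is 1.70-fold, with a log2 ratio of 0.76 (0.28 to 1.26), the highest ratio among the 39 compared members. Oas3 had 18 reads in Cry2scko and 3 in Cry2flox, a log2 ratio of 2.59 (0.99 to 5.17), but at a mean of 0.624 CPM it was not compared. Oas1a had 5 reads in Cry2scko and 3 in Cry2flox and shares 97.6% of 1861 bases with Oas1g, while Oasl1 had 12 reads in Cry2scko and 11 in Cry2flox. Oasl2, with 91 reads in Cry2scko and 94 in Cry2flox, was at 0.14 (-0.30 to 0.57). The 5 genes summed to 13.1 CPM in Cry2scko and 9.11 CPM in Cry2flox, and Oas2 and Oas3 gave most of that difference.

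Samhd1, a phosphohydrolase that depletes deoxynucleotides and so restricts retroviruses, was the most-read member. It had 752 reads (45.5 CPM) in Cry2scko and 636 reads (33.9 CPM) in Cry2flox, a log2 ratio of 0.42 (0.27 to 0.58). Lgals3bp, a secreted glycoprotein that binds galectins, had 209 reads in Cry2scko and 162 in Cry2flox, at 0.55 (0.25 to 0.86). Both were higher by less than 2-fold with intervals that exclude a ratio of 1. Samhd1 matches Brms1l at 95.6% identity over 206 bases and Zmynd8 at 96.1% over 205, among other genes, so some of its reads may be shared. Ifi27, a small membrane protein gene, had 210 reads in Cry2scko and 213 in Cry2flox at 0.16 (-0.12 to 0.44), and Ifi35, whose product partners with NMI, had 209 reads in Cry2scko and 217 in Cry2flox at 0.13 (-0.15 to 0.41).

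Isg15, Rsad2, Cmpk2 and Bst2 had intervals that include a ratio of 1, and that of Isg15 was wide. Isg15, a ubiquitin-like modifier, had 24 reads in Cry2scko and 27 in Cry2flox, a log2 ratio of 0.02 (-0.84 to 0.86). Rsad2, which encodes viperin, had 85 reads in Cry2scko and 82 in Cry2flox at 0.23 (-0.22 to 0.69), and Cmpk2, its neighbour on chromosome 12 and a nucleotide kinase of mitochondria, had 99 reads in Cry2scko and 93 in Cry2flox at 0.27 (-0.15 to 0.70). Bst2 was at 0.05 with 159 reads in Cry2scko and 174 in Cry2flox. The dynamin-like GTPase genes Mx1 and Mx2, which share sequence at 96.1% identity over 646 bases, had 34 reads in Cry2scko and 32 in Cry2flox together. Laboratory C57BL/6 mice are known to carry a defective Mx1 allele.

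The other effectors were spread around 0 with intervals that include a ratio of 1. Rtp4, a chaperone-like gene of receptor transport, had 39 reads in Cry2scko and 62 in Cry2flox at -0.48 (-1.10 to 0.12). Ifi44 had 22 reads in Cry2scko and 32 in Cry2flox at -0.35 (-1.21 to 0.47), and Eif2ak2, which encodes the RNA-activated kinase PKR, had 124 reads in Cry2scko and 169 in Cry2flox at -0.26 (-0.61 to 0.08). Xaf1, a gene of apoptosis, had 90 reads in Cry2scko and 109 in Cry2flox at -0.09, and the exonuclease gene Isg20 had 25 reads in Cry2scko and 18 in Cry2flox at 0.65 (-0.28 to 1.62). Over the 19 compared effectors, 7 had a ratio below 1, beside 50.5% of all compared genes, and the median log2 ratio was 0.05. Within 1.5-fold lay 15 of the 19 (78.9%), beside 87.2% of all compared genes.

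The 7 listed interferon-inducible GTPases are of families that assemble on the vacuoles of intracellular pathogens. All 7 were compared, and 0 passed the 2-fold rule, beside 4.88% of all compared genes. All 7 lay within 1.5-fold, beside 87.2% of all genes. In a list of 7 genes neither count stands far off its background. Their log2 ratios ran between -0.26 and 0.26 with a median of 0.12. Of guanylate-binding protein genes outside the 45, Gbp4 was at 0.50 (0.23 to 0.78), Gbp5 at 0.55 (0.10 to 1.01) and Gbp9 at 0.23 (0.04 to 0.41). Gbp6 was at 0.36 (-0.20 to 0.93), Gbp8 at 0.28 (-0.52 to 1.10) and Gbp10 at 0.01 (-0.55 to 0.56). Gbp10 matches Gbp6 at 99.2% identity over 3131 bases, so some reads can be exchanged. Gbp7, a guanylate-binding protein gene on chromosome 3, had 567 reads (34.3 CPM) in Cry2scko and 538 reads (28.7 CPM) in Cry2flox, at 0.26 (0.09 to 0.43). It shares 637 exon bases with Gm43802 on the same strand. Its neighbours Gbp2, with 125 reads in Cry2scko and 153 in Cry2flox, and Gbp3, with 139 reads in Cry2scko and 138 in Cry2flox, were at -0.11 and 0.19.

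The 4 immunity-related GTPases among the members split within narrow limits. Tgtp1, Tgtp2 and Ifi47, of the same family but outside the members, had higher ratios. They were at 0.57 (0.03 to 1.12), 0.65 (0.03 to 1.29) and 0.62 (0.002 to 1.26). Tgtp1 and Tgtp2 are near-identical copies, with 99.8% identity over 2811 bases. Irgm2 had 283 reads (17.1 CPM) in Cry2scko and 384 reads (20.5 CPM) in Cry2flox, a log2 ratio of -0.26 (-0.48 to -0.03), the lowest of the GTPases. Irgm1 had 233 reads in Cry2scko and 244 in Cry2flox at 0.12 (-0.15 to 0.38), and Igtp, which encodes IRGM3, had 158 reads in Cry2scko and 182 in Cry2flox at -0.02. Iigp1, an effector GTPase that these regulators hold in check, had 215 reads in Cry2scko and 210 in Cry2flox at 0.22 (-0.06 to 0.50). Igtp and Irgm2 share 162 exon bases on chromosome 11, so their reads can be exchanged. Together they had 441 reads in Cry2scko and 566 in Cry2flox, at -0.18 (-0.36 to 0.01), and the interval then includes a ratio of 1.

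**Figure D3:**
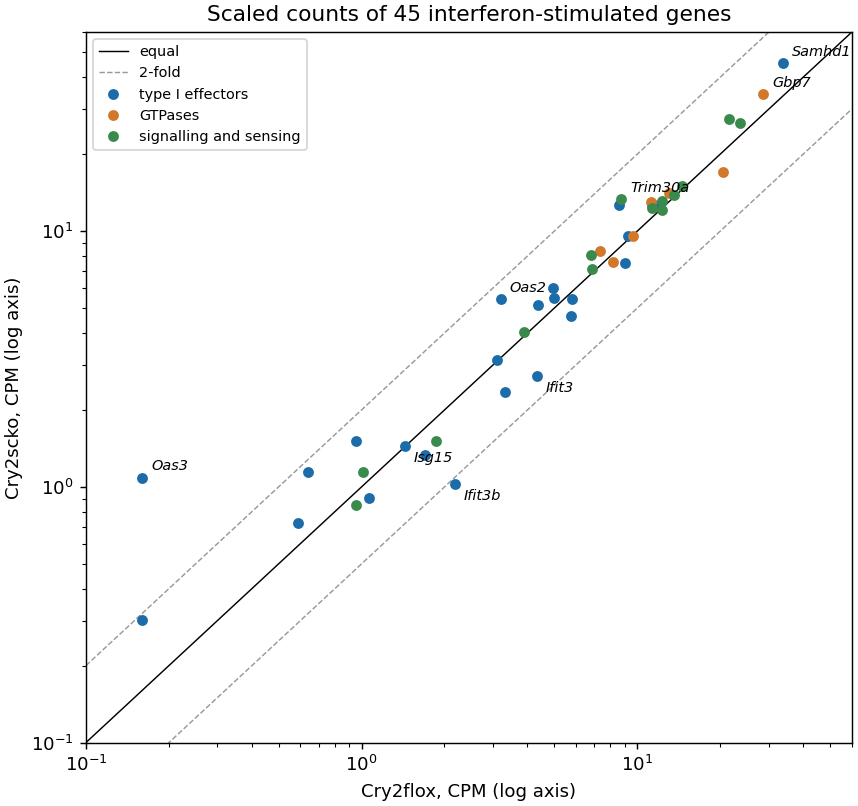
CPM of the 45 genes in Cry2scko (vertical) and Cry2flox (horizontal), both on log axes, coloured by role, with the line of equal values and dashed lines at 2-fold. The genes follow the line of equal values over the whole range, with Oas3 above and Ifit3b just below the 2-fold lines.

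Signalling and sensing genes had 13 of 14 members compared. Of these, 0 passed the 2-fold rule, beside 4.88% of all compared genes, and 12 lay within 1.5-fold, beside 87.2%. Their median log2 ratio was 0.10, and 11 of the 13 ratios lay above 1, while 50.5% of all compared genes lay below 1. The interval alone excluded 1 for 2 higher and 0 lower, beside 16.3% and 17.3% of all compared genes. The transcription factors of the response had intervals that include a ratio of 1. Stat2 had 230 reads in Cry2scko and 255 in Cry2flox, a log2 ratio of 0.03 (-0.23 to 0.30), and its partner Irf9 had 201 reads in Cry2scko and 232 in Cry2flox at -0.02 (-0.30 to 0.25). Irf1, a first-wave factor of the gamma response, had 118 reads in Cry2scko and 129 in Cry2flox at 0.06 (-0.32 to 0.43), and Irf7, which amplifies type I interferon production, had 67 reads in Cry2scko and 73 in Cry2flox at 0.06 (-0.44 to 0.56). The 4 together had 37.2 CPM in Cry2scko and 36.7 CPM in Cry2flox.

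The intervals of the cytosolic RNA helicases also include a ratio of 1. Ddx58, which encodes RIG-I, had 218 reads in Cry2scko and 231 in Cry2flox, at 0.10 (-0.17 to 0.37). Ifih1, which encodes MDA5, had 134 reads in Cry2scko and 128 in Cry2flox at 0.25 (-0.11 to 0.61). Dhx58, which encodes their regulator LGP2, had 19 reads in each library. Zbp1, a sensor of Z-form nucleic acid, had 14 reads in Cry2scko and 18 in Cry2flox, too few to be compared.

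A pair of tripartite-motif genes stood above the rest of this group. Trim30a, an inducible TRIM gene known in mice for restraining NF-kappaB signalling, had 221 reads (13.4 CPM) in Cry2scko and 164 reads (8.73 CPM) in Cry2flox, a log2 ratio of 0.61 (0.32 to 0.91). Trim30d, at 0.16 (-0.33 to 0.66), matches Trim30a at 97.7% identity over 301 bases, so some reads can be exchanged. Trim25, the ubiquitin ligase that acts on RIG-I and also joins ISG15 to proteins, had 456 reads in Cry2scko and 406 in Cry2flox at 0.35 (0.15 to 0.55). Usp18, the protease that removes ISG15 and dampens IFNAR signalling, had the lowest ratio of the group, with 25 reads in Cry2scko and 35 in Cry2flox at -0.29 (-1.10 to 0.48).

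Parp14, Parp9 and Dtx3l encode ADP-ribosyltransferases and the ubiquitin ligase that partners with PARP9, and they lie next to each other on chromosome 16. Parp14 had 437 reads in Cry2scko and 442 in Cry2flox at 0.17 (-0.03 to 0.36). Dtx3l had 249 reads in Cry2scko and 274 in Cry2flox at 0.05, and Parp9 had 203 reads in Cry2scko and 213 in Cry2flox at 0.11. Parp9 and Dtx3l run on opposite strands and share 458 exon bases, and no label states whether the counting used strand, so their reads are partly interchangeable. Their joint log2 ratio was 0.08 (-0.11 to 0.26).

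Upstream of these genes, no interferon was read. All 20 ligand genes listed, Ifnb1, Ifng and 18 others, had 0 reads in both libraries. A count of 0 allows up to 0.181 CPM in Cry2scko and 0.160 CPM in Cry2flox for each gene, taking 3 reads as the limit. Of 6 receptor genes, 5 were compared, 0 of them passed the 2-fold rule and all 5 lay within 1.5-fold. The other, Ifnlr1, a receptor chain for the lambda interferons, had 1 read in Cry2scko and 2 in Cry2flox, below the limit of 3 reads. Ifnar1 had 258 reads in Cry2scko and 322 in Cry2flox, at -0.14 (-0.38 to 0.10), and Ifnar2 had 149 reads in Cry2scko and 156 in Cry2flox at 0.12. Ifngr1 had 486 reads in Cry2scko and 541 in Cry2flox at 0.03, and Ifngr2 had 1161 reads in Cry2scko and 1496 in Cry2flox at -0.18 (-0.29 to -0.07). The kinase gene Jak1 (2966 reads in Cry2scko and 3737 in Cry2flox) and the phosphatase gene Ptpn11 (1889 reads in Cry2scko and 2204 in Cry2flox), the best-read of their list by CPM, were at -0.15 and -0.04.

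In the list of kinases and negative regulators, 2 of 8 compared genes were higher and 0 lower, beside 3.37% higher and 1.51% lower of all compared genes. In lists this short 1 gene is a larger share than that background, so the counts here are read gene by gene. The 2 were Socs3, an inhibitor of cytokine signalling (112 reads in Cry2scko and 57 in Cry2flox, 2.22-fold), and Ptpn6, the phosphatase SHP-1 of blood cells (307 reads in Cry2scko and 165 in Cry2flox, 2.11-fold). Of the other interferon regulatory factors, 1 of 5 was higher, Irf8, a factor of B cells and myeloid cells, with 398 reads in Cry2scko and 201 in Cry2flox (2.25-fold). Irf2 and Irf3, the best-read of that list by CPM, were at 0.11 and 0.09. Among genes that induce interferon, 1 of 11 was higher, Tlr9, a DNA receptor of B cells and dendritic cells (33 reads in Cry2scko and 16 in Cry2flox, 2.31-fold). The median log2 ratio of that list was 0.47, beside 0.00 over all compared genes. The interval alone excluded 1 for 5 of the 11 higher and 0 lower, beside 16.3% and 17.3% of all compared genes. Besides Tlr9 these 5 hold Ikbke, a kinase that activates interferon regulatory factors (113 reads in Cry2scko and 70 in Cry2flox, at 0.87, 0.43 to 1.33), and Myd88, the adaptor of most Toll-like receptors (136 reads in Cry2scko and 102 in Cry2flox, at 0.60, 0.22 to 0.98). The rest of the 5 were Tmem173 at 0.54 (0.18 to 0.92) and Tlr3 at 0.47 (0.02 to 0.92). Mavs and Tbk1, the most-read of that list, were at 0.05 and -0.02.

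A further list of 73 interferon-stimulated genes outside the 45 was less even. One symbol, Mnda, matched no gene, and 63 of the others were compared. Of these, 8 were higher, 0 lower and 55 neither, with a median log2 ratio of 0.35, beside 3.37% of all genes higher and a median of 0.00. The interval alone excluded 1 for 34 of the 63 in the higher and 3 in the lower direction, beside 16.3% and 17.3% of all genes. The 8 past 2-fold were Ifi213 (73 reads in Cry2scko and 17 in Cry2flox, 4.77-fold), Ifi209 (222 reads in Cry2scko and 71 in Cry2flox, 3.53-fold), Slfn2 (239 reads in Cry2scko and 86 in Cry2flox, 3.14-fold), Ms4a4c (2.88-fold), Epsti1 (2.79-fold), Sp110 (2.46-fold), Shisa5 (2.07-fold) and Herc6. Herc6, which encodes a ligase that joins ISG15 to proteins in mice, lay at the threshold with 108 reads in Cry2scko and 61 in Cry2flox. Ifi213, Ifi209, Slfn2, Sp110 and Herc6 have copies or overlapping models at 95% identity or more over at least 200 bases, so their reads may belong in part to other genes. Ly6e and Slfn5, the best-read of this list by CPM, were at 0.25 (0.12 to 0.39) and -0.27 (-0.41 to -0.13). The difference between this list and the 45 genes was not tested.

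Markers of lymphocytes were higher in the same library. Of 7 B cell markers, 6 were higher and 0 lower, beside 3.37% higher and 1.51% lower of all compared genes. They summed to 111 CPM in Cry2scko and 40.0 CPM in Cry2flox. The B cell receptor gene Cd79b had 244 reads in Cry2scko and 67 in Cry2flox. Of 8 T cell markers, 5 were higher and 0 lower, with 29.1 CPM in Cry2scko and 13.6 CPM in Cry2flox. Plasmacytoid dendritic cells, the cells known for making the most type I interferon, had 1 of 3 compared markers higher, Spib, which B cells also express. Their defining gene Siglech had 26 reads in Cry2scko and 18 in Cry2flox. The 6 natural killer markers summed to 2.30 CPM in Cry2scko and 1.12 CPM in Cry2flox with none compared, and 1 of 6 neutrophil markers, S100a9, was compared and higher. No marker of B cells, T cells, plasmacytoid dendritic cells or macrophages was at 0, while Prf1 and Ly6g had 0 reads in both libraries and the natural killer receptor gene Ncr1 had 4 in Cry2scko and 0 in Cry2flox.

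Macrophage markers summed to 61.2 CPM in Cry2scko and 68.4 CPM in Cry2flox with 0 of 8 past the rule. Endothelial markers summed to 391 CPM in Cry2scko and 410 CPM in Cry2flox with 0 of 6 past it. Fibroblast markers summed to 1016 CPM in Cry2scko and 1609 CPM in Cry2flox, with 1 of 6 lower, Col1a1, beside 1.51% of all compared genes. The interval alone excluded 1 for all 6 in the lower direction, beside 17.3% of all compared genes. Col1a2, at 1.98-fold lower, was just short of the 2-fold rule. The part of these cell types in the ratios of Oas2, Trim30a, Ifit3b and the other members, and in those of the further list, was not tested.

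**Figure D4:**
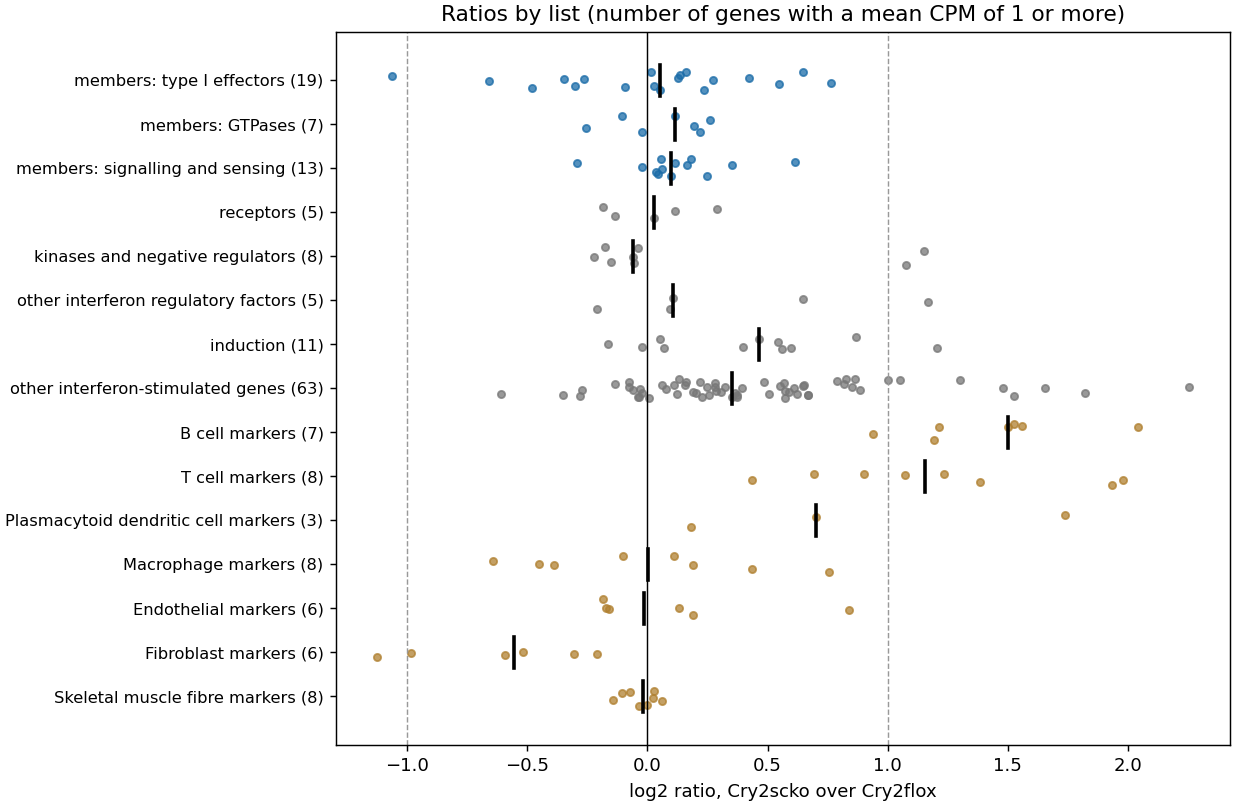
Log2 ratios, Cry2scko over Cry2flox, of the compared genes of each list, those at 1 CPM or above in the mean (number in brackets), with a black bar at the median and dashed lines at 2-fold. The 3 member groups have medians of 0.05, 0.12 and 0.10, the further interferon-stimulated genes 0.35 and T cell markers 1.15, and the bar of the B cell markers lies to the right of these.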

How the data were processed

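The deposited table holds raw counts, as whole numbers, for each Ensembl gene, and the deposited FPKM values come as 1 file per library, per the file headers. CASAVA, HISAT2 2.0.4, StringTie 1.3.0 and build GRCm38 were used, per the submitters' processing notes; the read counter, annotation release and strand setting are not given in the sources used here. For 100% of the genes read in both libraries, FPKM per read pointed to equal gene lengths, with a tolerance of 0.1%. Of 34745 identifiers, 34344 had a name in GENCODE M21.

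TMM factors from edgeR 4.0.16 in R 4.3.3 set the scale of the counts, at 1.01 for Cry2scko and 0.993 for Cry2flox. The log2 ratio was taken after 0.5 reads were added, with an exact Clopper-Pearson 95% interval converted to a ratio. Genes at a mean of at least 1 CPM (about 16.5 reads in Cry2scko and 18.8 in Cry2flox) were compared. A call needed a 2-fold ratio and an interval that excludes 1. The procedure was tested on simulated counts.

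Members were described if called, if among the 4 best-read or at the extremes of their group. Others named were chosen after their values were seen. Some genes of the pathway and marker lists are not reported here. The members, lists, scaling and thresholds were chosen with earlier results of these data known. Near-identical copies were sought with BLAST 2.17.0 at 95% identity over 200 bases. Alternatives were total counts, DESeq2 1.42.0 size factors, totals without mitochondrially encoded and the 20 most abundant genes, FPKM plus 0.1, no filter, a mean CPM of 5, 5 reads added, 1.5-fold, and leaving out overlapping genes. Python 3.11.15, numpy 2.4.6, scipy 1.17.1, pandas 2.3.3 and matplotlib 3.10.9 were used.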

Additional observations from a re-analysis of the deposited data

How the results depend on the processing

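No paired analysis was possible because each genotype has 1 library, and for the same reason no library could be left out. Under the 3 other scalings the member calls stayed at 0 higher and 1 lower. The members' median log2 ratio, 0.10 in the main setting, was 0.12 with total counts and 0.09 with DESeq2 size factors. It was 0.13 with totals that leave out mitochondrially encoded and the 20 most abundant genes. The single lower call, Ifit3b, was lost with FPKM plus 0.1, with a mean CPM of 5, with 5 reads added and without members that have a near-identical copy, each leaving 0 lower. Without a filter 1 member was higher, Oas3. At 1.5-fold 2 members were higher (Oas2 and Trim30a) and 2 lower (Ifit3 and Ifit3b), beside 6.56% and 4.35% of all genes. With the interval alone there were 6 and 3, a rule added after the values were seen, as was leaving out copies and leaving out Samhd1, which gave a summed log2 ratio within the counting interval of the whole. Without genes that share exon bases, 24 members were compared, their summed log2 ratio was 0.24 and their median 0.15, and the signalling and sensing median was 0.25. Over all genes, the calls were 432 higher and 194 lower. They became 789 and 396 with no filter and 175 and 76 at a mean CPM of 5, because more and fewer genes enter. At 1.5-fold they were 842 and 558, and 270 and 121 without overlapping genes. With FPKM plus 0.1 they were 312 and 116. Gene lengths were equal between the libraries, so beside a common scale this setting differs only in the amount added. Adding 0.1 FPKM draws the ratios of genes with low FPKM towards 1. The ratios of the 16 members named by rule stayed within their counting intervals in all 122 values under these settings. This says little, because a filter or the removal of other genes cannot change a gene's own ratio. The other scalings shift all ratios alike by a small amount. Depth limits Oas1a, Oas3, Oasl1, Mx1, Mx2 and Zbp1 most.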
